A study of Drosophila melanogaster with 3 samples.

Results

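Isolated Hairy summits were the reproducible binding summits with no other reproducible summit within 20 kb on either side on the same chromosome arm. They were chosen by their measured positions: 311 of 10233 summits (3.04%) met the rule, and the other 9922 did not. Chromatin immunoprecipitation followed by sequencing (ChIP-seq) had been carried out on whole wandering larvae of Drosophila melanogaster, at the end of larval life, in 3 biological replicates of 1 group of pooled males and females. The larvae came from 1 transgenic line (strain 15T-GFP) that carried h, the gene for Hairy, joined to GFP at its C terminus. The description of the samples names an antibody against GFP, while their antibody label reads h. The text follows the description, and if an antibody against Hairy was used, native Hairy and the fusion cannot be told apart. The promoter of the transgene, the tissues that expressed it and whether native Hairy was present are not stated in the labels. Whole larvae were used, so binding in a few cells and weak binding in many cannot be told apart. A control library named in the labels was not analysed here, so binding of the fusion protein and enrichment without it cannot be told apart.

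Hairy is a basic helix-loop-helix (bHLH) repressor of the HES family, first known as a pair-rule gene of embryonic segmentation. In the larva it is best known for keeping sensory bristle precursors from forming, by repressing proneural genes. HES proteins bind short sites related to the E-box, and Hairy recruits corepressors such as Groucho. A summit is the position inside a peak where the signal is highest. An isolated summit is easier to set beside its nearest gene than one in a cluster of summits, although the nearest gene need not be its target.

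The sequences below show what lay under 5 of the 7 strongest isolated summits (l(2)gd1, Pen, sp3, Idh3g, Ino80) and under 2 of the most isolated ones (l(3)80Fg, Cadps). Each window holds the summit and 50 bases on either side, and is named by the gene with the nearest protein-coding transcription start site (TSS), from the plus strand of RefSeq Release 6 (dm6). Capitals mark matches, on either strand, to the motifs searched. The l(2)gd1 window is chr2L:11106774-11106874, the Pen window chr2L:10057380-10057480, the sp3 window chr3R:21520329-21520429, the Idh3g window chr3R:25680684-25680784 and the Ino80 window chr3R:19403213-19403313. The l(3)80Fg window is chr3L:26012575-26012675, and the Cadps window chr4:1268722-1268822.
l(2)gd1: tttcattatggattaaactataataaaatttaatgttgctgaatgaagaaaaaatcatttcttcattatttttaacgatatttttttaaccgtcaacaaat
Pen: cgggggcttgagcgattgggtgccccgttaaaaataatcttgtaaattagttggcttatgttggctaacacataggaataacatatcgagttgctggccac
sp3: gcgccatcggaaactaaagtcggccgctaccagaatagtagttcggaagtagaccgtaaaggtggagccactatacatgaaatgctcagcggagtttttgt
Idh3g: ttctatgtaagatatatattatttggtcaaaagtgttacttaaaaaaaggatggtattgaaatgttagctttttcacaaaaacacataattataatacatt
Ino80: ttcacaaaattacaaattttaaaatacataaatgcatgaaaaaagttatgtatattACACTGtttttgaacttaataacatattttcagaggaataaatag
l(3)80Fg: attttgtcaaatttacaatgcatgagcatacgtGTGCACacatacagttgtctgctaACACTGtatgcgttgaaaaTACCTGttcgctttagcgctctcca
Cadps: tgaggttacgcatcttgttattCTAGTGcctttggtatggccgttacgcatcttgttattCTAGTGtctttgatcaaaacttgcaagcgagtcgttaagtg
The printed windows at l(2)gd1, Pen, sp3 and Idh3g held none of the motifs searched. Within 100 bp, the wider window used for all counts, the Pen summit had the class A E-box CAGCTG. The l(2)gd1, sp3 and Idh3g summits had none there either. The other 2 of the 7 strongest, RpL7 and Np, are not printed. Within 100 bp the RpL7 summit, second in strength, had matches to 6 of the motifs, CACGTG and the class C site CACGCG among them, and the Np summit to none. The Ino80 window held ACACTG, and the l(3)80Fg window held GTGCAC, a match to ACACTG and the reverse complement of CAGGTA. Within 100 bp the Ino80 summit also had CAGCTG and the l(3)80Fg summit GAGAGAG. The Cadps window held the N-box CACNAG on its reverse strand at a pair of places, and it lay inside an annotated transposable element, a sequence that can share reads with other copies.

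Nearest-neighbour distances, which chose the members, are given as a description. The median isolated summit lay 29254 bp from its nearest neighbour, against 1566 bp for the other summits. Just inside the limit were the summits nearest to Dus2, which encodes a tRNA dihydrouridine synthase, at 20037 bp, Cad99C, a protocadherin, at 20088 bp, and CG10702 at 20149 bp. Just outside it were the summits of sens-2 and Rca1, 19873 bp from each other, and that of CngA, a cyclic nucleotide-gated channel gene, at 19856 bp. These values run on without a gap at the limit, as the plot of distances shows. The number of members followed the limit closely, with 993 at 10000 bp, 146 at 30000 bp and 65 at 50000 bp.

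**Figure D1:**
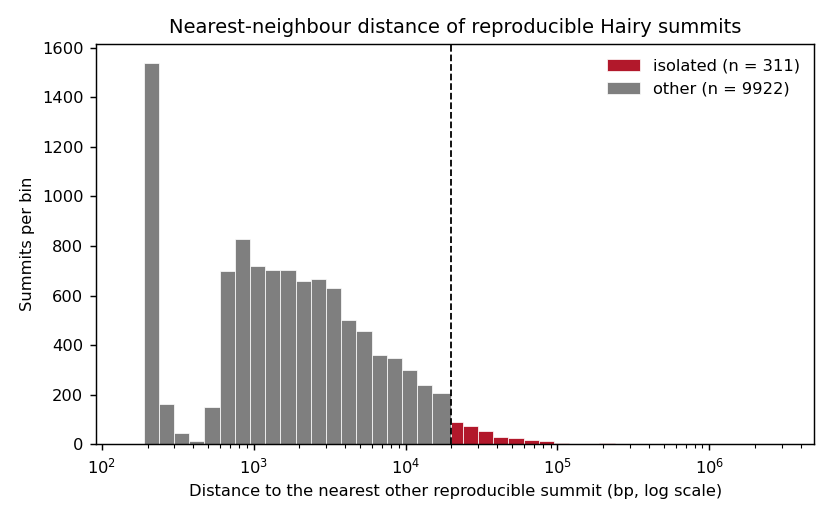
Number of reproducible Hairy summits by distance to the nearest other summit (x axis in bp, log scale), for the 311 isolated summits (red) and the 9922 others (grey); the dashed line is the 20 kb limit. The isolated summits are the upper tail of these distances, with no gap at the limit.

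Isolation was also relative to the strength a peak needed to be listed. The authors' pooled list of 30000 peaks held a median of 4 weaker peaks within 20 kb of an isolated summit, against 10 for the other summits. No weaker peak lay that near to 27 of the 311 isolated summits (8.68%), against 79 of the 9922 others (0.796%). Such bare summits were 17 of the 121 isolated summits at promoters and 10 of the 190 elsewhere. The strongest weaker neighbour of an isolated summit had a median signal value of 73.8 (n = 284 with a neighbour). The signal value is the authors' own score for a peak, without a stated scale, and is used here to rank peaks within a list.

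The isolated summits were spread over all 6 arms, with 63 on arm 2L, 54 on arm 2R, 57 on arm 3L, 76 on arm 3R, 55 on the X and 6 on the small chromosome 4. They made up 2.56% to 3.37% of the summits of the large arms and 6 of 25 (24.0%) on chromosome 4. Chromosome 4 also had the sparsest reproducible summits, at 18.5 per Mb, against 74.3 to 79.4 per Mb on the large arms. Within 2 Mb of the centromere end of a large arm lay 7 of 305 isolated summits (2.30%), against 30 of 9903 others (0.303%). Around isolated summits, the median repeat-masked share of the surrounding sequence was 15.5%, against 15.1% for the others.

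The 8 most isolated summits were of middle or low strength. All but the Cadps summit, on chromosome 4, lay toward the centromere end of arm 2L, 2R or 3L. The cause of these wide gaps, such as how well reads could be placed there, was not tested. The summit in an intron of l(3)80Fg, at 3L position 26012625, had its nearest neighbour 2917195 bp away, the RpL10 summit. It ranked 6988, 4296 and 7695 of 30000 in replicates 1, 2 and 3. The summit nearest to cta, which encodes a G protein alpha subunit needed for gastrulation, was 825340 bp from its neighbour and ranked 9159, 6575 and 8812. Both stood alone in the top list of every replicate as well. A top list is the 10233 strongest peaks of a replicate, the length of the reproducible list.
The summit 52 bp upstream of gus, a gene for a SOCS-box protein, lay 293123 bp from its neighbour and ranked 6433, 8373 and 17663. It was missing from the top list of replicate 3. The promoter summits of RpL38 and RpL10, 2 ribosomal protein genes, were 227819 and 205244 bp from their neighbours. RpL38 ranked 7105, 12410 and 9455 and RpL10 ranked 6890, 10800 and 7981, so both were outside the top list of replicate 2 alone. The remaining 3 were the Ugt50B3 promoter summit at 201412 bp, the intronic Cadps summit at 155410 bp and the Clamp summit at 149554 bp. Ugt50B3 encodes a UDP-glycosyltransferase, Cadps a protein of regulated vesicle release and Clamp a zinc finger protein that binds GA-rich DNA. The Cadps summit was in the top list of replicate 1 alone, with ranks of 8965, 10311 and 12158. Clamp was the strongest of the 8, with a signal value of 276 and ranks of 2938, 3453 and 8774, lower in replicate 3 than in the others.

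The isolated summits were weaker than the rest of the list. Their median rank in the reproducible list was 6414, against 5062.5 for the other summits. Of the isolated summits, 30 (9.65%, exact binomial 95% interval 6.60% to 13.5%) were in the strongest of 5 equal bins, against 2017 of the others (20.3%). The weakest bin held 90 isolated summits (28.9%), against 1956 of the others (19.7%). When the rule was applied to each replicate's own top list, 302, 335 and 304 summits were isolated in replicates 1, 2 and 3. Their median rank was 6876 ± 20.7, against 5067 ± 6.53 for the other summits (SD, n = 3), higher in number and so weaker in 3 of 3 replicates. No test was run, since 3 replicates allow no two-sided exact sign-flip p below 0.25. The replicate lists are also not independent of the reproducible list, which was made from them. Exact intervals cover counting error only, and neighbouring summits are not independent.

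Some isolated summits were nonetheless among the strongest of the list. The highest stood 119 bp upstream of l(2)gd1, which encodes an endosomal protein that limits Notch signalling, at 2L position 11106824. Its signal value was 1449 and its rank 158 of 10233. It ranked 165, 152 and 205 in replicates 1, 2 and 3, a narrow spread of 174 ± 27.6 (SD, n = 3). The RpL7 summit, in the 5′ UTR of a ribosomal protein gene, had a signal value of 1329 and ranked 202, 222 and 254. The Pen summit, in an intron of the gene for an importin alpha, had a signal value of 1027 and ranked 387, 333 and 612. The summit 549 bp upstream of sp3 ranked 392, 576 and 432. The Np summit, in an intron of a gene for a transmembrane serine protease, ranked 594, 361 and 456.
Several of the next summits stood at promoters. The summit 111 bp upstream of Idh3g, a subunit of mitochondrial isocitrate dehydrogenase, ranked 498, 592 and 382. The summit 110 bp upstream of Ino80, the ATPase of a chromatin remodelling complex, ranked 467, 534 and 844. It was one of the bare summits, with no weaker pooled peak within 20 kb. The Wdr62 summit, 107 bp inside a gene for a centrosome and spindle protein, ranked 464, 614 and 666. The other summits among the 15 strongest were nearest to tsl, CG4860, CG1227, CG43867, Cals, cold and Mhcl, with signal values between 628 and 794. Of these 15, 9 lay within 500 bp of a coding TSS, and the replicate ranks of all 15 stayed between 152 and 1438.

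**Figure D2:**
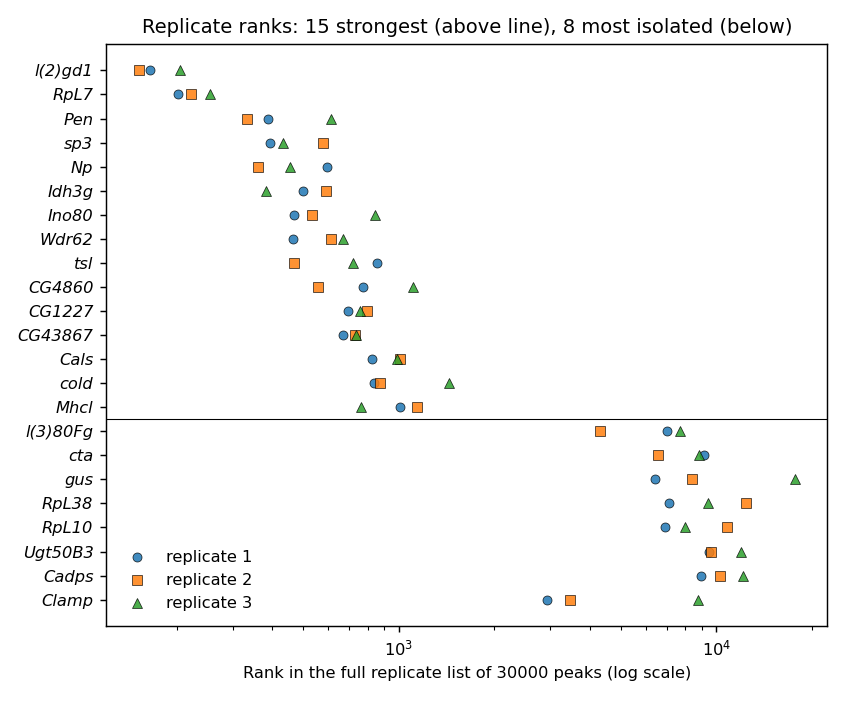
Rank of each summit in the full list of 30000 peaks of replicates 1 (circle), 2 (square) and 3 (triangle), on a log scale with 1 the strongest, for the 15 strongest isolated summits (above the line) and the 8 most isolated (below it), named by nearest coding gene. The strongest keep ranks of 152 to 1438, and the most isolated range from 2938 to 17663.

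Replicate support was nearly complete in the full lists and incomplete in the top lists. Of the 311 isolated summits, 309, 310 and 301 lay inside a peak of the full list of replicates 1, 2 and 3. In the top lists the numbers were 274 (88.1%), 277 (89.1%) and 228 (73.3%). The other summits had 89.2%, 88.7% and 84.3%. The mean over replicates was 83.5% ± 8.83 for isolated summits and 87.4% ± 2.67 for the others (SD, n = 3), a difference smaller than the spread. In all 3 top lists lay 189 isolated summits (60.8%), against 7015 of the others (70.7%) and 70.4% of the whole list. The exact interval of the isolated share was 55.1% to 66.2%. Without replicate 3, the share in the top lists of both remaining replicates was 78.1% (243 summits), against 80.3% of the others. The matching shares were 67.8% against 76.3% without replicate 1 and 65.6% against 76.9% without replicate 2, so the gap was narrowest without replicate 3.
Support fell with signal in both sets. In the strongest bin it averaged 98.9% for isolated summits and 98.8% for the others, and in the weakest bin 60.7% and 58.8%. When the other summits were weighted to the bins of the isolated ones, their support was 85.3%, 84.7% and 79.4% in replicates 1, 2 and 3. The differences, isolated minus other, were 2.83, 4.36 and -6.04 percentage points in replicates 1, 2 and 3, with a mean of 0.382 points, so they did not share a sign. The shortfall in replicate 3 was in its weaker bins, with 67.1% against 78.1% in bin 4 and 45.6% against 54.9% in bin 5.

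**Figure D3:**
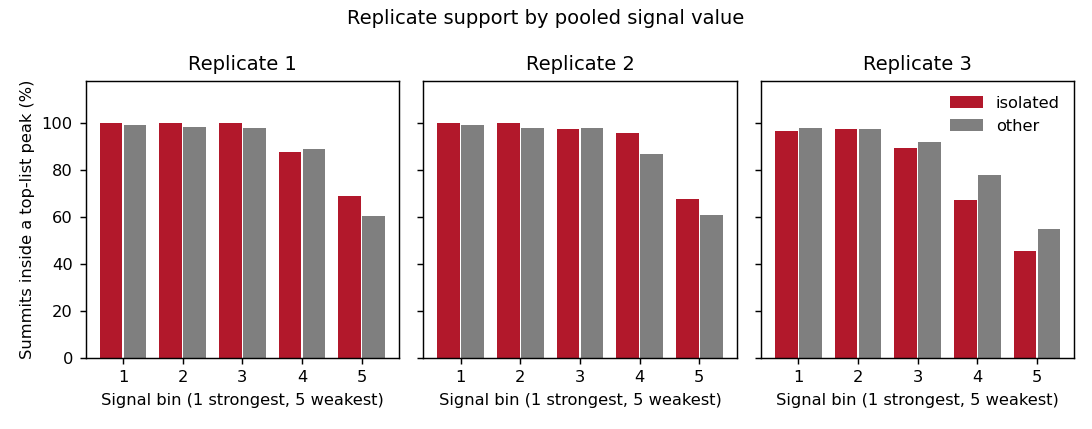
Share of isolated (red, left) and other (grey, right) summits that lay inside a peak of each replicate's top list (y axis, percent), by bin of pooled signal value from 1 (strongest) to 5 (weakest). Both sets fall together, and in replicate 3 the isolated summits are lower in bins 4 and 5, at 67.1% and 45.6%.

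The position of a summit was compared only where a replicate peak held it, which limits how far away the replicate summit can lie. Among isolated summits with a peak in the full list, the replicate summit lay a median of 14, 12 and 23 bp away in replicates 1, 2 and 3, against 16, 15 and 24 bp for the others. It was within 100 bp for 97.4%, 98.7% and 95.7% of isolated summits, against 94.0%, 93.9% and 90.5%. The replicate peak used was the strongest that held the summit. For summits with close neighbours it could be a neighbour's peak, so the sets were not matched alike. Isolation itself was repeated for part of the members. In the replicates' own top lists, 212, 236 and 162 of the 311 were again isolated, 32.5% of them in all 3 and 22 summits in none. The l(2)gd1 summit was isolated in replicate 3 alone, the Idh3g summit and the stronger Wdr62 summit in none, and the weaker Wdr62 summit in all 3. A single isolated summit was in no top list. It lay 161 bp upstream of Nplp2, a neuropeptide-like precursor gene, and ranked 10497, 10294 and 11431, just past the end of each top list.

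At promoters, the shares of isolated and other summits were close. Within 500 bp of a coding TSS lay 121 of the 311 isolated summits (38.9%, exact interval 33.5% to 44.6%), against 3946 of the others (39.8%) and 39.7% of the whole list. Applied to the replicates' own lists, the rule gave 38.6% ± 0.516 for isolated summits and 40.5% ± 0.824 for the others (SD, n = 3), lower in 3 of 3. The direction of this small difference depended on the settings. Isolated summits were higher at a promoter distance of 250 bp (33.4% against 32.4%) and at isolation limits of 10000 bp (41.9% against 39.5%) and 50000 bp (43.1% against 39.7%). They were lower at a promoter distance of 1000 bp (45.3% against 49.2%), the widest of these gaps.
Of the 121 promoter summits, 89 were upstream of the nearest TSS and 31 downstream, at a median distance of 90 bp. TSSs of at least 2 coding genes lay within 500 bp for 29 of them, so the gene cannot be assigned by distance there. A further 8 isolated summits were within 500 bp of a TSS of a gene that was not protein-coding. A median of 5 coding genes had a TSS within 20 kb of an isolated promoter summit, its own included, and 11 of the 121 had 1 coding gene there. The 121 had 149 coding genes within 500 bp and 554 further coding genes within 20 kb.

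Over all locations, promoters included, isolated summits were less often intronic and more often intergenic than the rest. Introns held 125 isolated summits (40.2%, exact interval 34.7% to 45.9%), against 50.9% of the others. Intergenic sequence held 148 (47.6%, exact interval 41.9% to 53.3%), against 36.0%. In the replicates' own lists the intronic share was 40.1% ± 0.289 for isolated summits and 50.3% ± 0.415 for the others, lower in 3 of 3. The intergenic share was 48.7% ± 0.300 and 35.9% ± 0.618, higher in 3 of 3, and both differences were larger than the spread between replicates (SD, n = 3). Away from promoters, introns held 103 of 190 isolated summits (54.2%), against 66.7% of 5976 others, and intergenic sequence held 83 (43.7%), against 29.7%. In the replicates' own lists these intronic shares were 52.2% ± 1.88 and 66.8% ± 0.163, and the intergenic shares 46.2% ± 0.809 and 29.5% ± 0.292 (isolated and other summits, SD, n = 3).
Over all 311, a further 33 isolated summits lay in 5′ UTRs (10.6%, against 10.8% of the others), 3 in 3′ UTRs and 2 in coding exons.

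**Figure D4:**
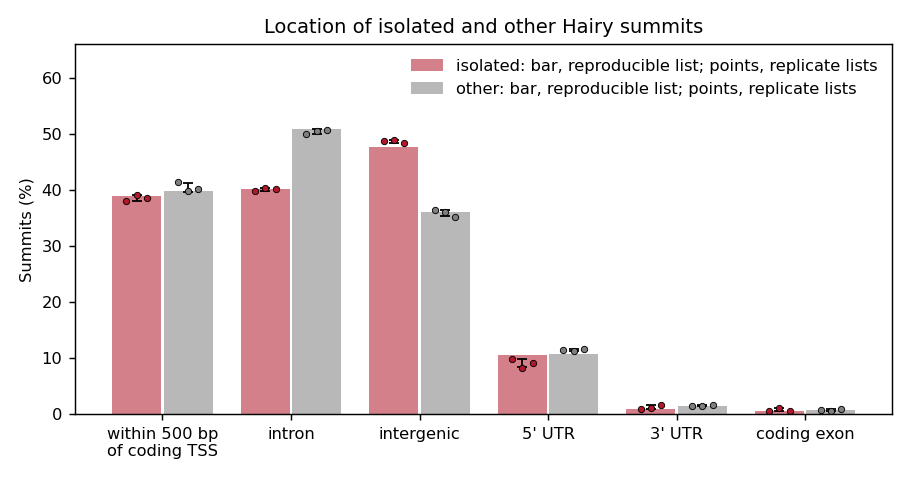
Share of isolated (red, left) and other (grey, right) summits in each location (y axis, percent); bars are the reproducible list, points the same rule in the 3 replicates' own top lists, and black bars their mean ± SD (n = 3). The first group overlaps the other 5, which add up to all summits. Isolated summits are lower in introns (40.2% against 50.9%) and higher between genes (47.6% against 36.0%).

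Around isolated summits there were fewer genes. The members were chosen by distances between summits and not by genes. These values are a description, and the cause of the difference was not tested. A median of 3 coding genes had a TSS within 20 kb, against 5 for the other summits. The mean was 4.31 genes, against 5.87, and in the replicates' own lists it was 4.18 ± 0.125, against 5.96 ± 0.0618 (SD, n = 3), lower in 3 of 3. No coding TSS lay within 20 kb of 27 isolated summits (8.68%), against 346 of the others (3.49%). The 121 isolated summits at promoters had a median of 5 coding genes within 20 kb. The 190 summits outside promoters had a median of 2 coding genes within 20 kb and lay a median of 4670 bp from the nearest coding TSS. Where an isolated summit was inside a coding gene, that gene had a median length of 31257 bp, against 21463 bp for the others (n = 163 and 6347 summits). Base composition differed little, with a median GC content of 36.3% within 100 bp of isolated summits, against 37.3%.

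**Figure D5:**
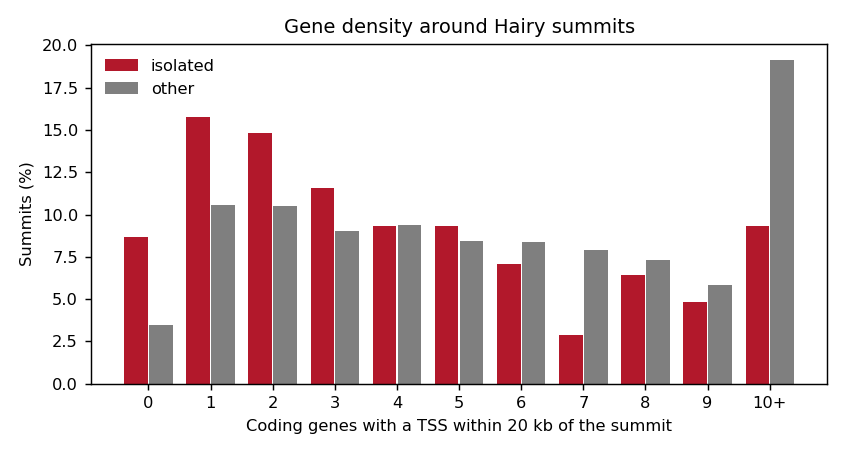
Share of isolated (red, left) and other (grey, right) summits (y axis, percent) by the number of protein-coding genes with a TSS within 20 kb (x axis). Isolated summits exceed the others from 0 to 3 genes, and fall below them at 10 or more genes (9.32% against 19.1%).

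Inside long genes, 5 hosts held 2 isolated summits each: CG44837, Elk, Rbp6, Wdr62 and btsz. Elk encodes a potassium channel, Rbp6 an RNA-binding protein and btsz a synaptotagmin-like protein. The Wdr62 summits lay 107 and 243 bp from annotated TSSs of that gene and 26770 bp from each other. The upstream one ranked 2871, 3078 and 2798 in replicates 1, 2 and 3, close together and well behind the first. The Rbp6 summits lay 24460 and 21729 bp from the nearest coding TSS, deep in introns of a gene of 179439 bp. They ranked 10837, 7183 and 11499 for the first and 11559, 7330 and 8540 for the second, higher on the list in replicate 2 than in the others.

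The isolated summits had 305 nearest coding genes, 2.19% of the 13945 annotated. Of the same 13945 genes, 4607 (33%) were nearest to some reproducible summit, the 305 among them. The count for a list therefore also depends on how many of its genes were nearest to any summit. Among 635 genes in 13 lists, 24 were nearest to an isolated summit. The lists were chosen with earlier results of these data known, and no list was tested. Several lists had none, which at 2.19% of all coding genes is near the background for lists this short. These were the HES family repressors (0 of 13), the proneural factors and their bHLH partners (0 of 10), the corepressors (0 of 9) and the transcriptional targets of signalling pathways (0 of 35). Of the signalling targets, 32 of 35 were nearest to some reproducible summit, so their summits lay within 20 kb of another.

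Homeobox and body-plan factors had 4 of 39 genes nearest to an isolated summit, and 23 nearest to some reproducible summit. The ap summit, 119 bp upstream of a TSS of the LIM-homeobox gene that specifies dorsal wing identity, ranked 4532, 9027 and 3751 in replicates 1, 2 and 3. The lab summit, in an intron of the most proximal Hox gene of the Antennapedia complex, ranked 5247, 4903 and 6061. B-H2, a Bar homeobox gene, was nearest to an intergenic summit 37191 bp away that ranked 6164, 5652 and 4743. The Lim3 promoter summit was the weakest of the 4 and ranked 10926, 9139 and 8757, outside the top list of replicate 1. It lay 284 bp upstream of the Lim3 TSS but 74 bp from a TSS of the noncoding gene lncRNA:CR44905.

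Neuronal adhesion and axon guidance genes had 6 of 48, with 30 nearest to some reproducible summit. The Dscam1 and Dscam3 summits, in introns of immunoglobulin-superfamily receptors, ranked 2219, 2494 and 2804 for Dscam1 and 3223, 2061 and 2335 for Dscam3. Both were among the stronger isolated summits in every replicate. The summit 3797 bp upstream of CadN, which encodes N-cadherin, ranked 4412, 3087 and 3835. The Ten-m promoter summit, at a teneurin gene, ranked 4166, 6913 and 8004. Dscam2 and NetA were the other 2. Ion channels and neurotransmitter receptors had 4 of 41, with 10 nearest to some reproducible summit. The 4 were Ca-alpha1T, nAChRalpha2, GluRIIB and mAChR-B. Their summits were all outside promoters, at 910 to 13583 bp from the TSS. The mAChR-B summit was in the top list of replicate 2 alone.

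Ribosomal protein genes had 5 of 88, with 66 nearest to some reproducible summit. Among the 5 were RpL7, RpL37-1, RpL10 and RpL38, each with its summit at the promoter. These ran from rank 191 for RpL7 to rank 9033 for RpL38 in the reproducible list. The RpL37-1 summit, 83 bp upstream, ranked 4150, 5036 and 3056 in replicates 1, 2 and 3. The muscle list had 1 of 26, Act57B, a muscle actin gene with a summit 4047 bp upstream. The ecdysone list had 1 of 20, Eip93F, with an intronic summit 20723 bp from its TSS. Of the cuticle proteins 1 of 95 was nearest (Cpr65Ec), of the chemosensory receptors 1 of 179 (Or98a, with its summit inside CG34353) and of the Dpr and DIP surface proteins 1 of 32 (dpr8). Nearest to some reproducible summit were 10 muscle, 20 ecdysone, 13 cuticle, 12 chemosensory and 3 Dpr and DIP genes of these lists. Counting instead genes whose span plus 1 kb upstream held an isolated summit gave 27 of the 635. Counts of single lists depended on this choice. Neuronal adhesion and axon guidance genes went from 6 to 10, and Dpr and DIP genes from 1 to 4. The muscle, chemosensory and cuticle lists each went from 1 to 0.

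Of the sites linked to bHLH factors, the class C site CACGCG had the highest ratio of summit to flank share at isolated summits, 2.00. This ratio varied with an SD of 1.34 over the replicates' own lists. The site was within 100 bp of 22 isolated summits (7.07%) and in 3.54% of windows of the same size centred 1000 bp away. Among the other summits the shares were 6.22% and 4.64%. The lower flank share adds to this difference, and the flanks of other summits fell inside a reproducible peak for 17.4% of them, against 0 of the 311 isolated ones. In the replicates' own lists the summit share exceeded that of the others in 3 of 3, by 1.08 ± 0.664 percentage points (SD, n = 3). The class B E-box CACGTG was at 8 isolated summits (2.57%, flanks 1.93%), the class A E-box CAGCTG at 27 (8.68%, flanks 8.36%) and the N-box CACNAG at 63 (20.3%, flanks 22.0%). The other summits had CACGTG at 2.10% (flanks 2.38%), CAGCTG at 9.49% (flanks 9.20%) and CACNAG at 20.3% (flanks 22.8%). Matches were counted on both strands, and no motif contains another, although matches can share bases, as those of GGTCACAC and ACACTG can.
The promoter motif DRE, TATCGATA, was at 9 isolated summits (2.89%), 8 of them at promoters, against 3.00% of the others. Ohler motif 1, GGTCACAC, was at 8 (2.57%), 7 of them at promoters, against 2.11% of the others. Both repeats searched were less common at isolated summits. GAGAGAG, a site of GAGA-binding factors, was at 2.57% of them (flanks 1.77%), against 5.85% of the others (flanks 3.75%), so the flanks differed in the same direction. CACACACA was at 4.18% (flanks 6.27%), against 5.58% of the others (flanks 4.91%), with flanks that differed the opposite way. In the replicates' own lists, the difference, isolated minus other, was -2.99 ± 0.333 points for GAGAGAG and -2.42 ± 0.408 points for CACACACA (SD, n = 3), lower in 3 of 3 for each. CAGGTA, related to the site of the activator Zelda, was at 5.79% (flanks 4.34%), against 4.24% of the others (flanks 4.41%). An earlier analysis of these data had named ACACTG and GTGCAC, so their presence is a description. ACACTG was at 61 isolated summits (19.6%, flanks 8.84%), against 16.5% of the others (flanks 7.52%), and the ratios of summit to flank share were nearly equal at 2.22 and 2.20. GTGCAC was at 31 (9.97%, flanks 2.89%), against 7.48% of the others (flanks 4.32%), and 24 of the 31 were outside promoters.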

How the data were processed

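Peak lists were deposited by the authors on builds dm6 and dm3. Per the deposited notes, peaks were called for each replicate and for all 3 pooled, against a control alignment, and the reproducible list was derived from these by irreproducible discovery rate (IDR). No aligner, peak caller or IDR threshold is named in the sources used here. The authors' signal value is a score without a stated scale. The deposited −log10 q-value was not used for ranking, since 221 of the 311 isolated summits share its highest value. Depth is unknown. Positions are 1-based on dm6.

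Summits (peak start plus offset) were annotated with Ensembl release 115 (13945 coding genes, 19607 coding TSSs), each to 1 class in the order coding exon, 5′ UTR, 3′ UTR, intron, intergenic. Calculations used Python 3.11.15, numpy 2.4.6, pandas 2.3.3 and scipy 1.17.1, and were tested on simulated peaks. No differences were tested, and spread is given over the 3 replicates' own lists. Nothing in the labels says which handling steps the biological replicates shared. Members, gene lists and motifs were chosen with earlier results of these data known. Symbols Sir2, Dl and argos were not matched to the annotation.

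Named genes were nearest to the 15 strongest isolated summits in all 3 top lists, the 8 most isolated, any in no top list, up to 4 per gene list, 3 on each side of the limit, and hosts with the most isolated summits (4 by the rule, with btsz, which had as many, added after its value was seen). Other list members (Dscam2, NetA) are named to complete a count, and 1 gene that the rule names is not reported here. Alternatives covered the isolation limit, list, build, overlap rule, promoter distance, annotation, motif window and each replicate left out. Weighting support by signal bin was chosen after seeing the data.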

Additional observations from a re-analysis of the deposited data

How the results depend on the processing

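The results below describe 1 group, so direction and size were compared with the spread over replicates. No paired analysis was possible between groups because the samples form 1 group, and isolated and other summits were compared within each replicate. The number of isolated summits was 311 and became 993, 146 and 65 at limits of 10000, 30000 and 50000 bp, 488 among summits above the median signal value (104 of them among the 311) and 27 with neighbours from the pooled list. The number stayed within 1.5 times under merging of overlapping intervals (323), on dm3 (318) and among summits in all 3 top lists (399). Of the 399, 189 were among the 311. Without each replicate it was 375 to 389. Those counts used the listed summits in both remaining top lists, and the reproducible list was not remade. Mean replicate support of 83.5% fell to 63.6% with a reciprocal overlap of 50%, was 98.6% in the full lists and ranged from 80.7% to 88.6% without each replicate. The median rank of 6414 became 5865 at 10000 bp and 7207 at 50000 bp. As the mean of the ranks in the full replicate lists it was 7301, and 6996 to 7283 without each replicate. The promoter share of 38.9% was 33.4% at 250 bp, 45.3% at 1000 bp, 41.5% with TSSs of all genes, 41.9% and 43.1% at limits of 10000 and 50000 bp, and 47.3% for isolated summits above the median signal value. The mean of the replicate lists ranged from 38.3% to 38.8% without each replicate. The intronic share of 40.2% was 40.6% at 10000 bp and 38.5% at 50000 bp. Its mean over the replicate lists was 39.9% to 40.2% without each replicate. The intergenic share of 47.6% was 48.0% at 10000 bp, and the mean of the replicate lists 48.5% to 48.8% without each replicate. The contrasts with the other summits kept their direction at both limits, with intronic shares of 40.6% against 51.6% at 10000 bp and 38.5% against 50.6% at 50000 bp, and intergenic shares of 48.0% against 35.1% and 47.7% against 36.3%. The median distance to a coding TSS of 1287 bp was 1084 bp with TSSs of all genes, 1135 bp at 10000 bp and 2412 bp at 50000 bp. The mean of the replicate lists' medians was 1332 to 1462 bp without each replicate, and 1400 bp with all of them. The mean number of coding genes within 20 kb, 4.31, was 5.61 with TSSs of all genes, 5.17 at 10000 bp and 3.54 at 50000 bp. Over the replicate lists it was 4.12 to 4.24 without each replicate, and 4.18 with all of them. The ratio of summit to flank share for CACGCG was 2.00, with 1.90 to 2.44 under other windows and flanks. The mean of the replicate lists' own ratios was 2.46 to 3.80 without each replicate, which does not recalculate the 2.00. For CAGCTG the ratio was 1.04, with 1.15 and 1.18 in windows of 50 and 200 bp. The mean of the replicate lists' own ratios was 0.856 to 0.947 without each replicate. For CACNAG the ratio was 0.920, and no alternative moved it beyond the spread. The cause of these shifts was not tested. Read depth is unknown, so weaker summits near isolated ones cannot be called absent.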
